A study of Drosophila melanogaster with 2 samples.

Results

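The cuticle protein genes of the fly are described here by where an eGFP-tagged nerfin-2 protein was, and was not, called near their start sites. They were taken as the protein-coding genes of the Ensembl BDGP6 annotation whose symbol starts with Cpr, Lcp, Ccp84A, Edg or Twdl. The rule found 121 of 13986 protein-coding genes. One of them, the gene whose whole symbol is Cpr (FBgn0015623), encodes NADPH-cytochrome P450 reductase, an electron donor to cytochrome P450 enzymes, and is not a cuticle protein. The other 120 are 70 Cpr genes, 25 Twdl genes, 15 Lcp genes, 7 Ccp84A genes and 3 Edg genes. Of these, 46 lie on arm 3L, 33 on 3R, 27 on 2R, 8 on X and 6 on 2L, and 109 have a single annotated transcription start site (TSS). The study used chromatin immunoprecipitation followed by sequencing (ChIP-seq) on whole embryos of a transgenic Drosophila melanogaster strain with a nerfin-2-eGFP fusion gene. The embryos were 8 to 24 h old, and the antibody was against GFP. It holds 1 group of 2 biological replicates, so no condition is compared with another, and both samples carry the transgene. The signal comes from the fusion protein and from all tissues of the embryo together, so epidermal cells cannot be told apart from the rest. No RNA was measured, so whether the cuticle genes were active in these embryos was not measured either.

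The insect cuticle is a layered coat of chitin fibres and proteins that the epidermis and the tracheal cells secrete late in embryogenesis. Most Cpr, Lcp, Ccp84A and Edg proteins carry the Rebers and Riddiford domain, which binds chitin, and the Tweedle (Twdl) proteins form a separate family that shapes the body. Many of these genes sit side by side in tandem clusters, and pulses of the steroid hormone ecdysone, relayed by nuclear receptors, time their expression. Nerfin-2 belongs to the zinc finger proteins, and its relative nerfin-1 acts in early neurons.

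No cuticle protein gene had a peak called at its start. In the conservative list, the list of peaks that passed the irreproducible discovery rate (IDR) threshold of 1% across both replicates, 0 of 120 cuticle protein genes had a summit within 500 bp of any TSS. The same count was 0 of 120 in the second list across replicates, in the list of replicate 1 and in the list of replicate 2. The background for the conservative list was 19.4% of all protein-coding genes, 22.9% of the genes that had at least a relaxed call at a start, and 16.5% of the genes with a single TSS, which is the form most cuticle genes have. For the other lists the background over all protein-coding genes was 21.4% in the second list, 18% in replicate 1 and 13.6% in replicate 2. A gene without a called summit was not shown to be unbound, since the read depth behind the lists is unknown. No test was run on these counts, because the genes were chosen with results of the data known and many of them are neighbours and copies of each other.

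The sole gene of the rule with a called summit was the reductase gene Cpr, in all of the 4 lists. Its peak had a signal of 194 in the conservative list, where it was number 693 of 2796 peaks by signal. The strongest relaxed call there had a signal of 102 in replicate 1 and of 110 in replicate 2, so both replicates lay above the median of the genes called in their own list. Signal is the peak caller's own value and was not rescaled between lists. The summit lay 402 bp before the first of 4 start sites of Cpr, and the others were 1391, 3321 and 5265 bp away. It lay 8 bp from a start site of Pez, a protein tyrosine phosphatase gene on the opposite strand, and within the Pez gene. The bases below, read from the Release 6 (dm6) assembly on the plus strand at chr2L:6338389-6338418, carry the letters TATCGATA in capitals, the core of the DNA replication-related element (DRE), found here 34 bp from the summit.
Cpr and Pez summit: cgaagtgctgaTATCGATAcgcaggtgctg
The peak at Cpr is therefore also a peak at the Pez start, and assigning each summit to its nearest TSS left 0 genes of the rule with a call.

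Relaxed calls were common at the cuticle protein genes but weak. The ranked list behind the conservative list holds 151811 calls, most of them below any threshold. It placed a summit within 500 bp of 99 of the 120 cuticle genes (82.5%), against 84.5% of all protein-coding genes. Replicate 1 had such a call at 91 cuticle genes (75.8%) and replicate 2 at 96 (80%), with 78 genes in both, 13 in replicate 1 alone, 18 in replicate 2 alone and 11 in neither. The strongest ranked signal per gene had a median of 27.97 over the 99 cuticle genes, with the middle of the distribution from 20.6 to 38.0 (quartiles) and a range of 4.19 to 77.8. The median was 37.6 over the 9009 other genes with a ranked but no conservative summit, and 148 over the 2709 genes with a conservative summit. Of the 99 cuticle genes, 74 lay below that middle value of 37.6. A signal above 50 was reached by 10 cuticle genes (10.1%) and by 28.1% of the other genes without a conservative summit. The strongest signal was taken over all start sites of a gene, so more start sites give more places for a high value. A single TSS is annotated for 109 of the 120 cuticle genes and for 10286 of all 13986 genes, and the signals were not matched for this.

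The same order held in each replicate. In replicate 1 the median was 16.8 at cuticle genes, 22.7 at the other genes without a call and 87.9 at called genes. In replicate 2 the medians were 16.6, 20.01 and 84.0. The highest value at any cuticle gene was 40.7 in replicate 1 and 46.6 in replicate 2, below the median of called genes in both. Of the 78 genes with a value in both replicates, 38 were higher in replicate 1 and 40 in replicate 2. Across those genes Spearman's rho between the replicates was 0.29, given as a description over neighbouring genes that are not independent.

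**Figure D1:**
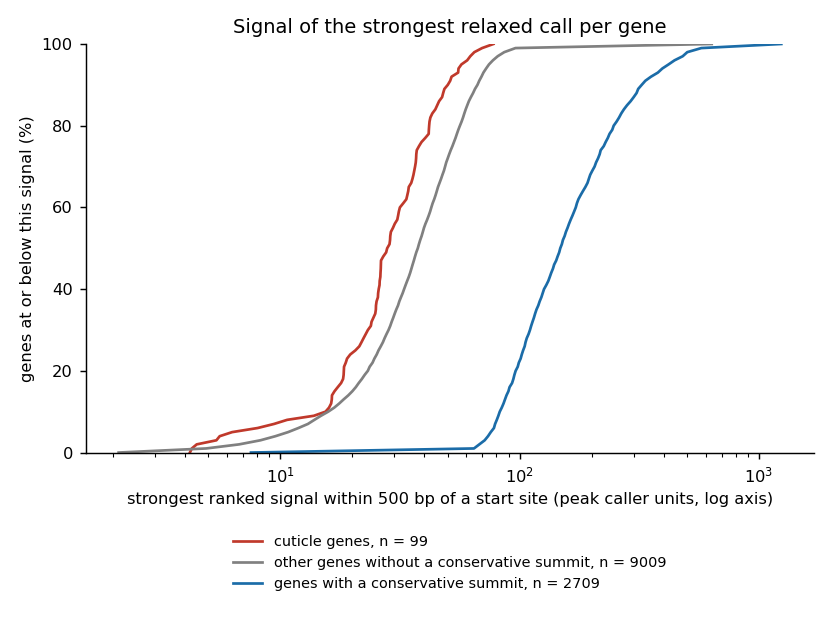
Cumulative distribution of the strongest ranked signal within 500 bp of a start site (x axis, peak caller units, log scale; y axis, percent of genes) for 99 cuticle genes, 9009 other genes without a conservative summit and 2709 genes with one. The cuticle curve has a median of 27.97, to the left of 37.6 for the other genes without a summit and of 148 for called genes.

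The cuticle genes with the strongest relaxed calls came from several clusters and families. Cpr47Eg, a member of the Cpr chitin-binding family, had the highest signal, 77.8 in the ranked list across replicates, with 26.7 in replicate 1 and 46.6 in replicate 2. The tweedle gene TwdlW followed with 69.6 across replicates, 36.8 in replicate 1 and 27.6 in replicate 2. Cpr57A had 64.5 across replicates, 40.7 in replicate 1 and 35.6 in replicate 2. In these genes the replicate with the higher value was not always the same one. Cpr65Eb had 62.1 across replicates, 34.6 in replicate 1 and 24.7 in replicate 2. Cpr64Aa had 60.3 across replicates, 29.0 in replicate 1 and 30.6 in replicate 2, and its summit lay 35 bp from the start site. The ecdysone-dependent gene Edg84A came next with 56.8 across replicates, 34.0 in replicate 1 and 20.1 in replicate 2. All 6 genes stood under the median conservative peak, which had a signal of 121, but 462 of the 2796 conservative peaks (16.5%) had a signal lower than that of Cpr47Eg.

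Signal alone did not decide a call, since the IDR also asks whether ranks hold between sets of calls. The lowest IDR at any cuticle gene in the list across replicates was 0.0303, at TwdlW, against the threshold of 1%. In the ranked list behind the second list it was 0.0139, at Cpr47Eg. In the replicates' own lists it was 0.0772 at Lcp9, a larval cuticle protein gene, in replicate 1 and 0.0897 at Cpr97Ea in replicate 2. On the deposited score, which rises as the IDR falls, the highest cuticle values were 630, 770, 462 and 434 in those 4 lists, against a lowest thresholded score of 830. The best placed cuticle call by signal was number 2867 of the ranked list, and the median one was number 55929.

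**Figure D2:**
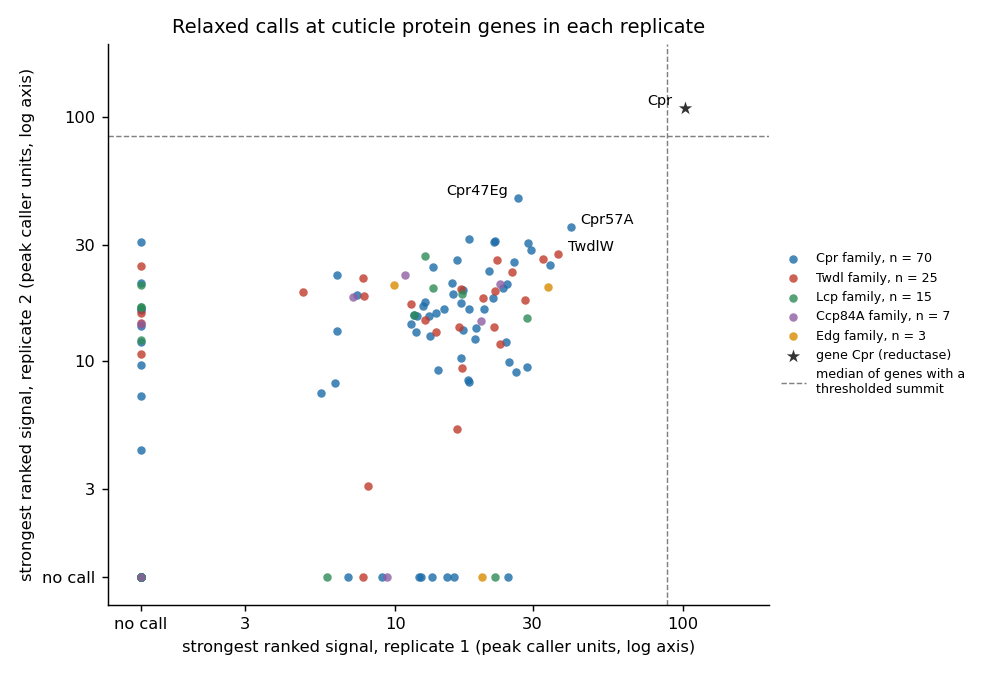
Strongest ranked signal within 500 bp of a start site in replicate 1 (x axis) and replicate 2 (y axis), in peak caller units on log axes, for each of the 121 genes of the rule coloured by family, with genes that had no call placed on the "no call" line. Every cuticle gene lies below both dashed medians of the called genes (87.9 and 84.0), and the star of the reductase gene Cpr lies above both.

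The presence of a relaxed call varied between the families. A ranked summit was present at 24 of 25 Twdl genes (96%), at 58 of 70 Cpr genes (82.9%), at 6 of 7 Ccp84A genes, at 3 of 3 Edg genes and at 8 of 15 Lcp genes (53.3%). The median signals were 30.2 for Twdl, 28.3 for Cpr, 21.2 for Ccp84A, 30.2 for Edg and 25.95 for Lcp, and the ranges of the families overlapped. Among the 11 genes without a ranked summit in either replicate were Ccp84Ab, Cpr100A, Cpr51A, Cpr65Au and Cpr65Ax1, the first in alphabetical order, and 6 of the 11 lie in the Lcp65A and Cpr65A cluster. In that cluster the 300 bp promoter windows of Lcp65Ab1 and Lcp65Ab2 were 98% identical, and those of Cpr65Ax1 and Cpr65Ax2 were 97.3% identical. Of these 4 near-copies, 2 had a ranked summit and 2 had none in either replicate. The sources used here do not say how reads from such copies were placed, so values at these genes are uncertain. Lcp65Aa and Cpr65Ax2 shared 1 ranked summit between their starts, with a signal of 26.3.

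What most cuticle genes share, and the rule did not use, is a TATA box. The start regions of 6 genes named above or below are shown because they hold these letters at the usual place. Each line runs from 60 bases before to 10 bases from the start site on, in the direction of the gene, from the Release 6 assembly, with TATAAA in capitals. The TwdlW line is chr3R:17142395-17142464 (minus strand), the Cpr65Eb line is chr3L:7088778-7088847 (minus) and the Cpr64Aa line is chr3L:4209169-4209238 (minus). The Edg84A line is chr3R:6684385-6684454 (plus), the TwdlN line is chr3R:26631809-26631878 (plus) and the Cpr65Av line is chr3L:6139965-6140034 (minus).
TwdlW: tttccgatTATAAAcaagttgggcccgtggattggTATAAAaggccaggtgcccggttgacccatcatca
Cpr65Eb: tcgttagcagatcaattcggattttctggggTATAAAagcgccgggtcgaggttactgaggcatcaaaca
Cpr64Aa: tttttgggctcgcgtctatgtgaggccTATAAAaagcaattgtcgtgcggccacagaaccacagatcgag
Edg84A: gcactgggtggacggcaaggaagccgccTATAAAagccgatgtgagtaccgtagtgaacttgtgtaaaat
TwdlN: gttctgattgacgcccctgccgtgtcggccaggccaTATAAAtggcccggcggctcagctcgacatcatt
Cpr65Av: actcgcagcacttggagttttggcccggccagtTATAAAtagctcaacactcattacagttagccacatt
For contrast, the line below is from the bound gene tant, 75.9 kb to the left of the Cpr65A cluster. That gene has a DRE (capitals) 10 bp before its start at chr3L:6055076-6055145 (plus) and no TATAAA in the stretch shown. Within 50 bp of the start, a DRE was found at 14.1% of the start sites of called genes, so most of them lack it there.
tant: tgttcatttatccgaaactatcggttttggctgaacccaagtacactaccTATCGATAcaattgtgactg

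Within 50 bp of a start site, TATAAA on the sense strand was found at 65.2% of the 132 cuticle start sites, against 11.6% of all 19630 protein-coding start sites and 4.98% of the 4356 start sites of genes with a conservative summit. Among the 86 cuticle start sites with a match, the first match began at a median of 29 bp before the start, and 68 (79.1%) began 24 to 36 bp before it. Over all start sites with a match, 50.2% began in that interval. In the window from 250 bp before to 50 bp after the start, searched on both strands, TATAAA was found at 74.2% of cuticle start sites, 42.2% of all and 39.7% of those of called genes. The DRE, TATCGATA, was found at 1 of the 132 cuticle start sites (0.758%), that of Cpr49Af, against 7.98% of all and 23.7% of those of called genes. The core of the M1BP motif, GGTCACAC, was found at 0 of 132, against 6.71% and 8.17%.

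In percentage points, the other searched motifs differed less between cuticle and called genes than TATAAA and the DRE did. The Initiator core TCAGT was found on either strand at 55.3% of cuticle start sites, 52.1% of all and 44.9% of those of called genes, and GAGAG at 32.6%, 33.1% and 29.9%. CAAGGTCA, the core of the site of the nuclear receptor FTZ-F1, was found at 2 cuticle start sites (1.52%) against 0.545% and 0.574%, and AACCGGTT, a core of the epidermal factor Grainy head, at 0 against 0.688% and 0.482%. A DRE and a TATAAA can share bases and were then counted for both, and a match describes the letters and not a site in use. Of all protein-coding genes with TATAAA on the sense strand within 50 bp of a TSS, 9.46% had a conservative summit, against 21.2% of those without. Of the 120 cuticle genes, 86 (71.7%) were of the first kind, and none of them had a call. The cuticle genes without TATAAA there had no call either, so calls did not differ between cuticle genes of either kind. The part of promoter type in the absence of calls was not tested.

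**Figure D3:**
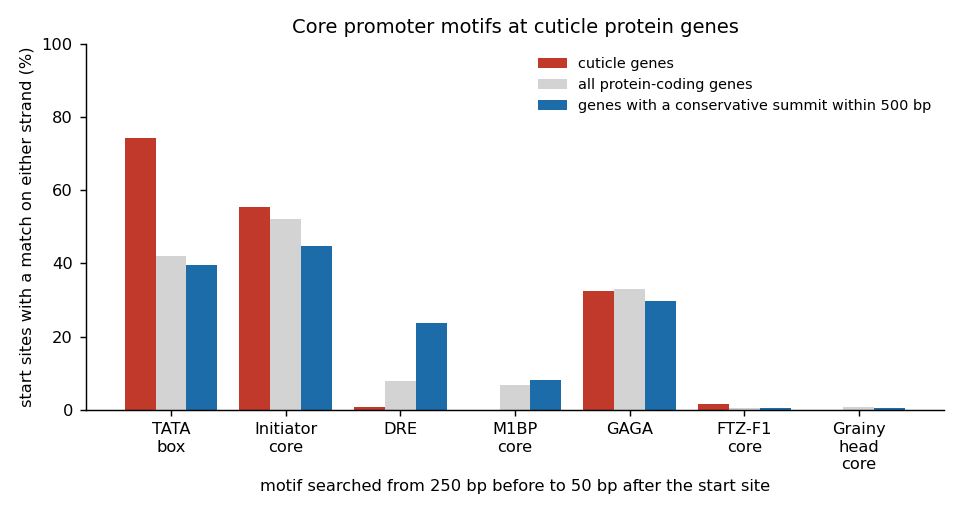
Percent of start sites (y axis) with a match on either strand for each of 7 motifs (x axis), for 132 cuticle, 19630 protein-coding and 4356 called-gene start sites. The TATA box stands at 74.2% in cuticle genes and 39.7% in called genes, and the DRE at 0.758% and 23.7%.

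At the median, cuticle protein genes also lay farther from called peaks than all protein-coding genes did. The distance from a cuticle gene's TSS to the nearest conservative summit had a median of 21688.5 bp, with quartiles of 13032 and 42385.5 bp and a range of 738 to 252112 bp. Over all 13968 protein-coding genes on the main arms the median was 9799 bp, and over the 11259 of them without a summit within 500 bp it was 15207 bp. In the upper tail the order was reversed, with a 95th percentile of 73315.5 bp for cuticle genes and 106289 bp for all genes. Cuticle genes of the same cluster share flanking summits, so their distances are not independent. The shortest distance over the start sites of a gene was used, and the distances were not matched for the number of start sites. A summit within 5000 bp was present for 7 of 120 cuticle genes (5.83%). It was present for 38.0% of all genes and for 23.1% of those without a summit within 500 bp. Beyond 10000 bp lay 101 cuticle genes (84.2%), against 49.6% of all genes and 61.6% of those without a summit at the start. Cuticle genes were short, with a median gene length of 970 bp against 2162.5 bp.

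**Figure D4:**
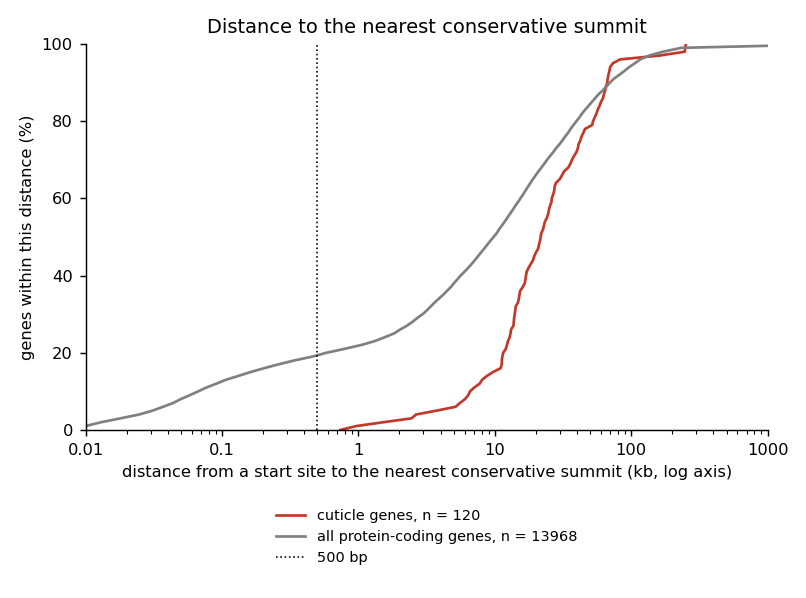
Percent of genes (y axis) whose nearest conservative summit lies within a given distance of a start site (x axis, kb, log scale), for 120 cuticle genes and 13968 protein-coding genes, with the 500 bp limit dotted. The cuticle curve begins at 738 bp, to the right of the limit, where 19.4% of all genes are already counted.

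The few cuticle genes with a summit within 3 kb were named after their values were seen. The nearest summit, 738 bp downstream of the Cpr49Ad start, lay inside the Cpr49Ad gene and 199 bp from the start of an INE-1 transposon copy. Its peak, 2R:12390761-12391160, had a signal of 20.7, and a stronger overlapping peak with its summit outside the Cpr49Ad gene had 147. The strongest ranked call at that place had 86.9 in replicate 1 and 60.4 in replicate 2. Cpr60D had a summit 944 bp upstream with a signal of 151, with ranked calls of 74.9 in replicate 1 and 70.4 in replicate 2. That summit lay 27 bp from the start of CG30161, and the start of ND-19, which encodes a subunit of respiratory complex I, was within 500 bp of it as well. Cpr65Ec had a summit 1049 bp downstream of its start with a signal of 99.5 across replicates and ranked calls of 53.2 in replicate 1 and 54.1 in replicate 2, and no gene's TSS lay within 500 bp of it.

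At 2 further genes the nearby summit was that of a neighbour. The summit 2297 bp upstream of Cpr67B (signal 93.7) lay 40 bp from the start of eIF4E1, a cap-binding translation factor, and the summit 2673 bp downstream of the Cpr31A start (98.3) lay 14 bp from the start of Pen, an importin. Cpr50Cb had a summit 2564 bp downstream of its start, inside its own gene body, with a signal of 81.2 and ranked calls of 44.1 in replicate 1 and 36.6 in replicate 2. Its peak and the one at eIF4E1 passed the threshold across replicates and in neither replicate alone. The peak at Pen also had a thresholded call in replicate 2, but none in replicate 1.

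Conservative summits inside the tandem clusters were counted as well. Runs of at least 5 cuticle genes with start sites no more than 20 kb apart numbered 5 and held 52 genes. Between their outermost start sites lay 11 other protein-coding genes, of which 0 had a conservative summit, beside 19.4% of all protein-coding genes. So small a number of genes does not set 0 apart from that share. The INE-1 pair in the Cpr49A run was the sole place with a summit inside. A further 37 genes lay in 11 runs of 2 to 4, which held 0 summits, and 31 genes stood alone. The 4 large clusters without an inner summit lay in stretches of 30.5 to 158 kb free of conservative summits. The usual spacing of conservative summits along the arms was not computed. These lengths and the summits inside the clusters thus have no background, and whether the clusters hold fewer summits than other stretches was not tested.

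The cluster on 3L from Lcp65Ag3 to Cpr65Az had 17 cuticle genes in 29.8 kb, of which 9 had a ranked summit. Its strongest was Cpr65Av with a signal of 36.9 across replicates, 13.8 in replicate 1 and 15.8 in replicate 2. The nearest conservative summit lay 13.9 kb to the left of the cluster, inside Ets65A, an ETS transcription factor gene, with a signal of 63.2. On the right it lay 13.2 kb away at the shared start region of fmt and CG7376, with a signal of 268 and ranked calls of 130 in replicate 1 and 118 in replicate 2. The nearest bound gene on the left was tant, 75.9 kb away, with a signal of 205. Acp65Aa, an adult cuticle protein gene within the cluster and outside the symbol rule, had no conservative summit.

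The cluster on 3R from Edg84A to Ccp84Aa, within the Antennapedia complex of homeotic genes, had the shortest distances to the flanking summits on both sides among the 5 large clusters. It had 8 cuticle genes in 19.6 kb, and the ranked signal across replicates and in replicate 1 was highest at Edg84A. The homeotic gene lab, 5.86 kb to its left, was bound with a signal of 81.5 across replicates, and its ranked calls had 43.6 in replicate 1 and 44.3 in replicate 2. On the right a summit with a signal of 76.5 lay 5.11 kb from Ccp84Aa inside the homeotic gene pb, with ranked calls of 37.8 in replicate 1 and 36.3 in replicate 2. Both replicates thus had a relaxed call on each side, and the next bound gene start to the right was CG1105, 363 kb away, with a signal of 331.

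The other 3 large clusters had longer distances to the flanking summits, though the Cpr49A cluster holds the INE-1 pair inside. The Twdl cluster on 3R, from TwdlM to TwdlD, had 12 genes in 20.9 kb. Across replicates it was led by TwdlN with a signal of 51.3, and with 22.6 in replicate 1 and 26.1 in replicate 2. In replicate 1 TwdlD was higher, with 28.3. The summits nearest to this cluster were 52.1 kb to the left inside scrib, a cell polarity gene, and 85.2 kb to the right at CG6420. The nearest bound gene on the left was plum at 83.9 kb with a signal of 90.7. The Cpr47E cluster on 2R, with 7 genes in 25.05 kb, lay 55.9 kb from a summit inside shn and 19.1 kb from one at CG42336 (147), and CG12391 (124) was the bound gene on the left at 103 kb. The Cpr49A cluster on 2R, with 8 genes in 37.3 kb, was led by Cpr49Ab with 31.1 across replicates. It stood between CG34021, 39.7 kb away with a signal of 215, and Tmem18, 22.2 kb away with 379. The summit at CG34021 lay 415 bp from that gene's start but 57 bp from the start of a histidine tRNA gene. The summit at Tmem18 lay 191 bp from that gene's start but 93 bp from the start of DUBAI, and inside the DUBAI gene. Among the smaller runs, Lcp1 to Lcp4 lay 266 and 246 kb from the nearest summits, the farthest of the Lcp genes.

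**Figure D5:**
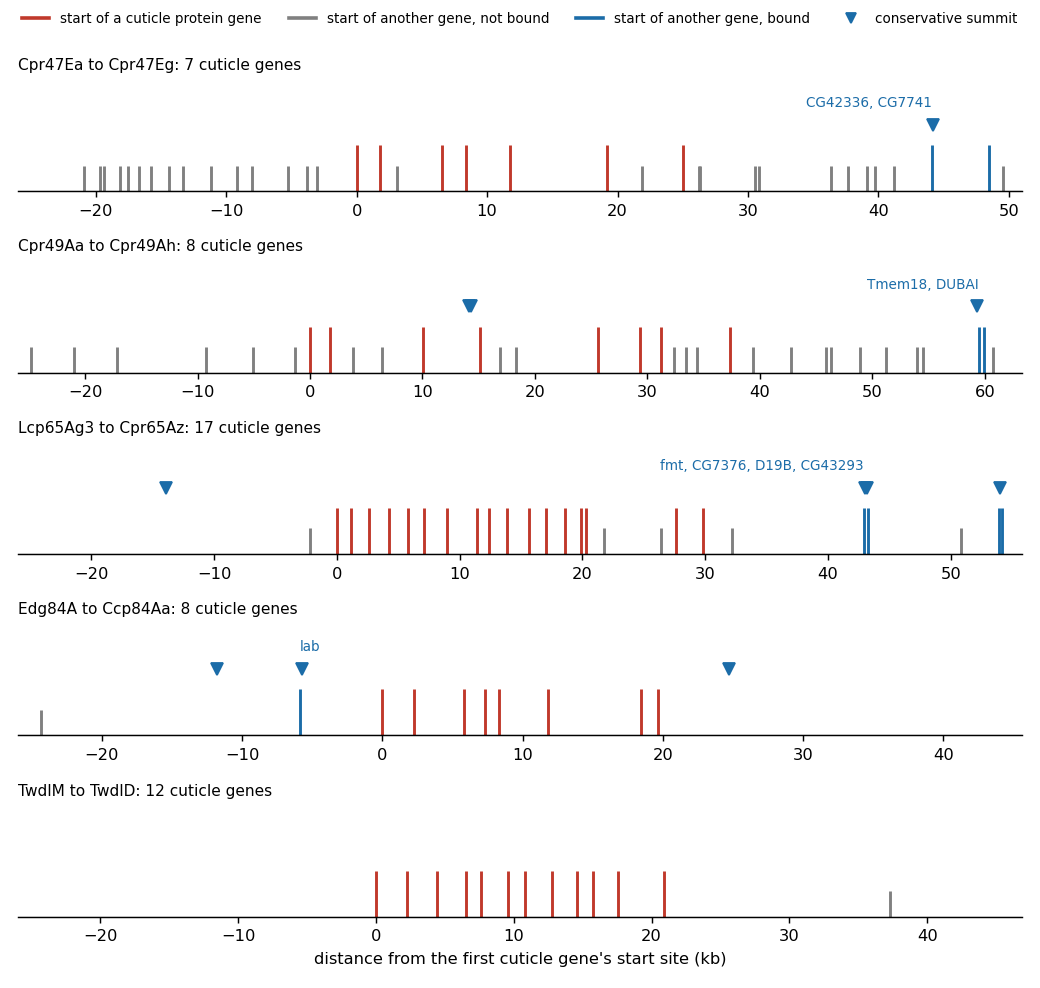
Start sites (1 per gene) in and around the 5 clusters of 5 or more cuticle genes, on a scale of kb from the first cuticle gene's start site, with conservative summits as triangles and bound neighbours named. Triangles stand beside a cluster where a flanking summit falls in the stretch drawn, such as the one 5.76 kb before Edg84A at lab. The TwdlM to TwdlD cluster has none, as its flanking summits lie 52.1 and 85.2 kb away. The sole triangles inside a cluster are the INE-1 pair in the Cpr49A cluster.

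A list of genes that act with the cuticle proteins but have other names was read in the same way. Of 60 written symbols for chitin synthesis and assembly, other cuticle proteins, tanning and epidermal or ecdysone-linked regulators, 58 distinct genes were matched, and 3 of them (5.17%) had a conservative summit, beside the 19.4% of all genes. A ranked summit was present at 51 of the 58. By role the count was 2 of 16 for chitin synthesis and assembly, 0 of 19 for other cuticle proteins, 0 of 8 for tanning and pigment, and 1 of 15 for regulators. The count depended on the list: 7 of the 58 were called in the second list, where the background is 21.4%, 5 in replicate 1 alone and 1 in replicate 2 alone. In the second list 3 of the 15 regulators were called, namely usp and the nuclear receptor genes ftz-f1 and Eip75B. The regulator bound in the conservative list was usp, the nuclear receptor partner of the ecdysone receptor, with a signal of 173 across replicates, ranked calls of 97.7 in replicate 1 and 60.6 in replicate 2, and a summit 118 bp from its start. The chitin genes with a conservative summit were rtv, needed for chitin fibre order, and the chitinase gene Cht2. Their summits lay 233 bp before the rtv start and 370 bp before the Cht2 start. For rtv the signal was 112, with 56.1 in replicate 1 and 40.8 in replicate 2. For Cht2 it was 87.4, with 58.8 in replicate 1 and 35.0 in replicate 2. In all 3 genes replicate 1 had the higher value, on signals that were not rescaled between lists. When each summit was assigned to its nearest TSS, or a peak had to overlap a TSS, usp alone kept its call. In the thresholded list of replicate 2, too, usp was called and rtv and Cht2 were not. The Tweedle gene Tb, which the symbol rule does not cover, had no conservative summit.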

How the data were processed

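ChIP-seq was done on 2 biological replicates of 1 group of whole embryos, and lists of peaks were analysed, not reads. A control named in the labels was not analysed here. Per the labels, the peaks are on build dm6. No source used here names the aligner or peak caller, and read depth is unknown from the lists, so no interval was given. The authors deposited 4 thresholded lists and the ranked list behind each. Signal, as deposited, is a value of the peak caller, the deposited score rises as the IDR falls, and the deposited −log10 column of the ranked lists holds the IDR. In the lists across replicates, 16 columns per sample were not used.

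A gene was called when a summit (peak start plus summit offset) lay within 500 bp of any TSS in Ensembl 115. Promoter windows came from the Release 6 assembly. Work was done in Python 3.11.15 with pandas 2.3.3, numpy 2.4.6, scipy 1.17.1, Biopython 1.88 and matplotlib 3.10.9, and the summit search was tested on simulated summits. No statistical test was run. The genes and lists were chosen with earlier results of these data known. Genes named are those with a thresholded summit, the strongest member and bound neighbours of each large cluster, bound genes of the related list, the first 5 without a replicate call and the 5 strongest without a threshold call. Other named genes were chosen after their values were seen. In the related list, 1 symbol was not matched, 3 were matched through a synonym and 1 of these repeated another.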

Additional observations from a re-analysis of the deposited data

How the results depend on the processing

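The count of 0 of 120 cuticle genes with a call stayed at 0 within 250 bp, in the second list, in each replicate alone, with the 500 strongest peaks, by nearest TSS and by overlap of peak and TSS. Within 1000 bp it was 2 (Cpr49Ad and Cpr60D), while all genes went from 19.4% to 21.8%. Counted by the symbol rule, the 1 called gene, Cpr, became 0 within 250 bp, with the 500 strongest peaks, by nearest TSS, by overlap and without the reductase gene, and 3 within 1000 bp. For the related list, the 3 called genes became 5 within 1000 bp and 7 in the second list (adding ftz-f1, mmy, obst-B and Eip75B). They became 0 with the 500 strongest peaks, 1 by nearest TSS and 1 by overlap, and the gene left by nearest TSS and by overlap was usp. Leaving out a replicate gave 1 (without replicate 1, usp alone) to 5 (without replicate 2). No paired analysis was possible because the 2 replicates belong to 1 group. Depth, a control and expression were not measured here, and all counts describe peak lists of 1 tagged strain.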
